A study of Homo sapiens with 12 samples.

Results

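The 6 genes described here, SPI1, CEBPA, IKZF1, CSF1R, MPO and ELANE, belong to the myeloid and lymphoid branches of blood formation and serve as a contrast to the erythroid genes that GATA1 and TAL1 are best known for. Their members are the intervals of the GATA1 and TAL1 peak lists that overlap a fixed window around each gene. The windows hold 13 distinct intervals of the 24658 in both lists together: 10 of 22769 in the GATA1 list and 8 of 8918 in the TAL1 list. An interval with the same start and end in both lists is called shared, and there were 5 of these, beside 5 in the GATA1 list only and 3 in the TAL1 list only.

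The study used K562, a human erythroleukemia line, and set control cells beside cells in which GATA1 or TAL1 was knocked down with lentiviral short hairpin vectors. Its 12 chromatin immunoprecipitation libraries cover GATA1, TAL1, LDB1, H3K27ac and an input, with never more than 1 library per antibody and condition. The lists used here are those of GATA1 (antibody sc-1233) and TAL1 (antibody sc-12984) in control cells, both from chromatin cut with micrococcal nuclease. The title of the TAL1 library carries the mark Sp, which that of the GATA1 library lacks, and the titles do not explain it. The other 10 libraries were not analysed here, so nothing below measures an effect of a knockdown. K562 is a cultured leukemia line, and each list comes from 1 library, so no count below has a replicate error and no difference was tested. Over the whole lists, 0 intervals overlapped without identical boundaries, and the labels do not say how the intervals were defined. Shared and single-list intervals therefore describe membership of the lists, and every share below depends on how the intervals were defined. The depth of both libraries is unknown, and an interval missing from a list cannot be told apart from a site below the threshold of that library.

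GATA1 is a zinc finger transcription factor that drives erythroid and megakaryocytic genes. TAL1, of the basic helix-loop-helix class, often binds beside it together with LMO2 and LDB1. SPI1 encodes PU.1, an ETS factor that drives myeloid and B cell programmes, and PU.1 and GATA1 are known for opposing each other in blood progenitors. CEBPA encodes a leucine zipper factor needed for granulocytes, and IKZF1 encodes Ikaros, a zinc finger factor of lymphoid development. CSF1R is the receptor for macrophage colony-stimulating factor. MPO and ELANE encode myeloperoxidase and neutrophil elastase, proteins of the granules of neutrophils. The lists hold no expression values, so whether these K562 cells express the 6 genes was not measured.

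The 6 windows fell into 3 states. SPI1, IKZF1 and CSF1R held intervals of both factors, CEBPA and MPO held GATA1 without TAL1, and ELANE held no interval of either list. No window held TAL1 without GATA1. Both of the lineage factors with TAL1 intervals, SPI1 and IKZF1, had 3 each, and CSF1R had 2. Positions are those of hg19 and are counted from 1. The intervals are not placed in exons, introns or promoters, because no hg19 annotation was used here.

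**Figure D1:**
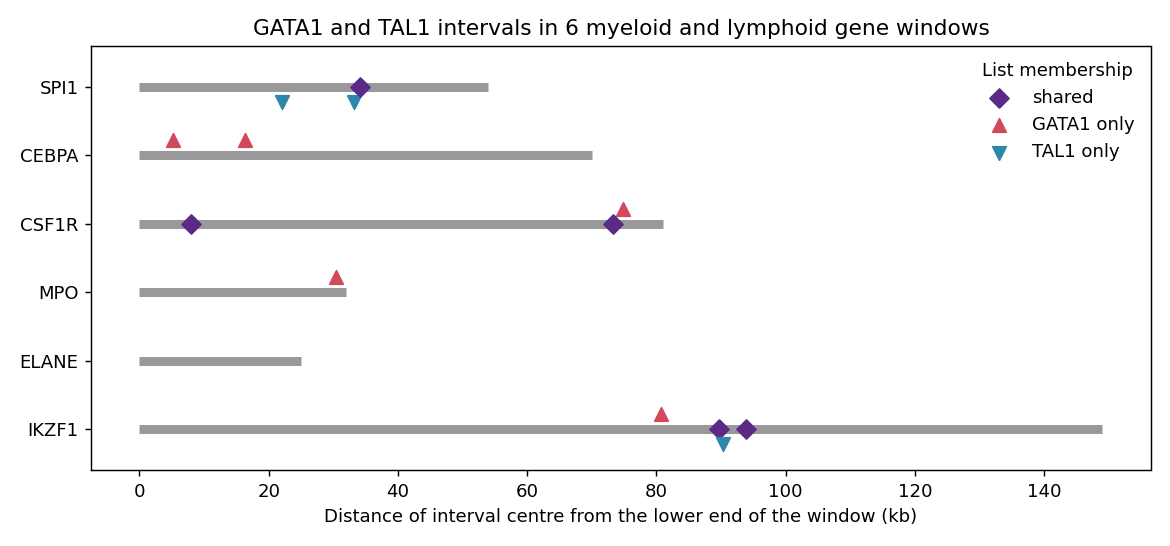
Each grey bar is a gene window drawn to its length, and each symbol marks the centre of an interval, in kb from the lower end of the window. Diamonds are shared intervals, upward triangles are in the GATA1 list only and downward triangles in the TAL1 list only. CEBPA and MPO carry upward triangles only, and ELANE carries no symbol.

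The window of SPI1 (chromosome 11, 47366001 to 47420000, 54 kb, band p11.2) held 1 GATA1 and 3 TAL1 intervals. The shared interval lay at 47399966 to 47400266 and measured 301 bp. A TAL1-only interval of 137 bp at 47399138 to 47399274 stood 691 bp below it. The other TAL1-only interval, at 47387761 to 47388193, was wider at 433 bp and stood a further 10.9 kb away. SPI1 was thus the window with most TAL1-only intervals, 2 of the 3. Among tiles of 54 kb laid end to end over chromosomes 1 to 22 and X, 10.3% held both factors, 21.6% had at least 1 GATA1 interval, and 1.27% had at least 3 TAL1 intervals.

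Just beyond the upper end of the SPI1 window lay a further 4 intervals within 10 kb. Shared intervals of 105 bp and 179 bp were found 1.67 kb and 2.63 kb outside it. GATA1-only intervals of 238 bp and 621 bp followed at 5.24 kb and 9.46 kb. On that side the next protein-coding gene in RefSeq order is SLC39A13, a zinc transporter. On the lower side the nearest GATA1 interval was 66.2 kb away and the nearest TAL1 interval 67.3 kb away. The limit of the window therefore decides the make-up at SPI1: widened by 10 kb on both sides, it held 5 GATA1 and 5 TAL1 intervals, 3 of them shared.

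The window of IKZF1 (chromosome 7, 50334001 to 50483000, 149 kb, band p12.2) held 3 GATA1 and 3 TAL1 intervals, 2 of them shared. All 4 distinct intervals lay within 13.7 kb, from 50414600 to 50428330, so the rest of the window held none. In order of position, a GATA1-only interval of 165 bp at 50414600 to 50414764 came first. A shared interval of 252 bp at 50423505 to 50423756 followed after 8.74 kb. Only 236 bp separated it from a TAL1-only interval of 508 bp at 50423993 to 50424500. The last, a shared interval at 50427535 to 50428330, stood 3.03 kb further on.

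That last IKZF1 interval measured 796 bp, more than any other in the 6 windows, and 97.6% of all shared intervals were narrower. The TAL1-only interval of IKZF1, at 508 bp, was wider than 91.3% of its class. The lists give no height, so width is the only size they offer, and it describes the interval as listed and not the strength of binding. Outside the window the nearest GATA1 intervals were 27.2 kb below and 81.7 kb above, and the nearest TAL1 intervals 96.5 kb below and 81.7 kb above. Widening by up to 25 kb added nothing at IKZF1. Of tiles of 149 kb, 22.7% held both factors, 17.4% had at least 3 GATA1 intervals and 5.58% had at least 3 TAL1 intervals.

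The window of CEBPA (chromosome 19, 33780001 to 33850000, 70 kb, band q13.11) held 2 GATA1-only intervals and no TAL1 interval. They measured 188 bp, at 33785068 to 33785255, and 175 bp, at 33796327 to 33796501, and stood 11.1 kb apart. The TAL1 intervals nearest to them were 30.5 kb and 41.8 kb away. Both measures led to the same neighbour, a shared interval of 236 bp at 33754340 to 33754575, which lay 25.4 kb below the window. On the upper side, towards CEBPG, another gene of the same leucine zipper family, the next GATA1 interval was 437 kb away and the next TAL1 interval 1070 kb away. GATA1 without TAL1 was the state of 12.5% of tiles of 70 kb, and 13.7% had at least 2 GATA1 intervals.

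The window of CSF1R (chromosome 5, 149422001 to 149503000, 81 kb, band q32) held 3 GATA1 and 2 TAL1 intervals, and both TAL1 intervals were shared. They lay near the ends of the window and not in its middle. A shared interval of 261 bp at 149429863 to 149430123 stood 7.86 kb from the lower end. A shared interval of 256 bp at 149495071 to 149495326 and a GATA1-only interval of 126 bp at 149496757 to 149496882 stood 7.67 kb and 6.12 kb from the upper end, 1.43 kb apart. Between the shared intervals, 64.9 kb held none. RefSeq gives CSF1R a length of 60.1 kb, on the assembly GRCh38.p14, and its neighbours in order are HMGXB3 and PDGFRB, the latter a receptor for platelet-derived growth factor. Which of these genes each interval lies in was not determined. Of tiles of 81 kb, 14.3% held both factors, 9.16% had at least 3 GATA1 intervals and 5.81% had at least 2 TAL1 intervals.

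The neutrophil granule genes had the fewest intervals by count, in the shortest windows, although the GATA1 density of MPO, at 31.2 per Mb, was above those of SPI1, CEBPA and IKZF1. The window of MPO (chromosome 17, 56337001 to 56369000, 32 kb, band q22) held a GATA1-only interval of 293 bp at 56367311 to 56367603, which lay 1.40 kb from the upper end. Its lower 30.3 kb held none. The nearest TAL1 interval was 61.9 kb from that GATA1 interval, and on the lower side the nearest was 705 kb below the window. GATA1 without TAL1 was the state of 8.82% of tiles of 32 kb, and 15.3% had at least 1 GATA1 interval.

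The window of ELANE (chromosome 19, 842001 to 867000, 25 kb, band p13.3) was empty, as were 86.3% of tiles of 25 kb, so the absence is the common state at this length. Its surroundings held many intervals. A TAL1-only interval of 152 bp lay 5.78 kb above it, at 872785 to 872936, and the nearest GATA1 intervals, both shared, lay 49.9 kb below and 40.2 kb above. ELANE sits between PRTN3, another neutrophil serine protease, and CFD, the complement protease factor D. The 500 kb on both sides of the window held 38 GATA1 and 23 TAL1 intervals, more of each than beside any other of the 6 windows.

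**Figure D2:**
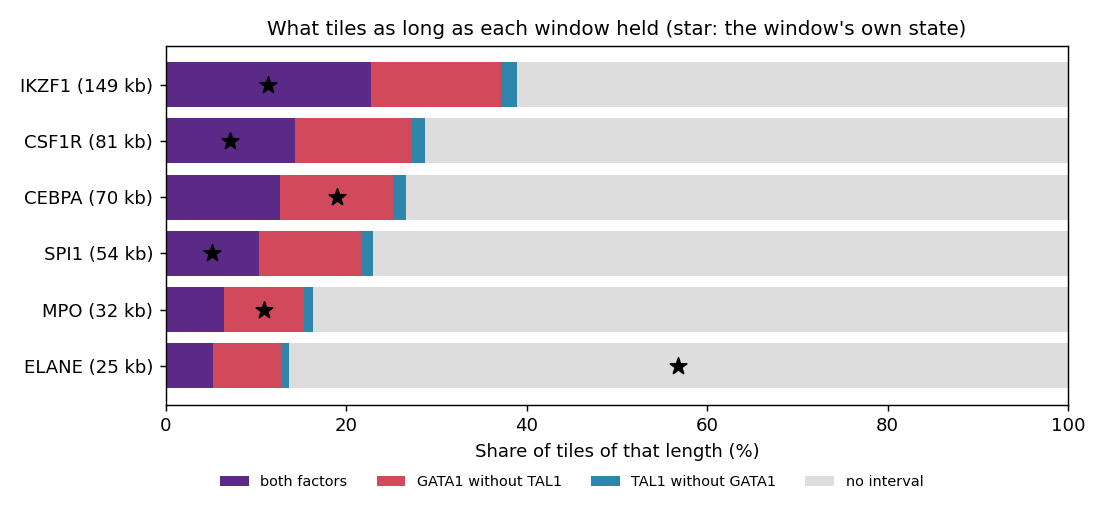
Bars give, for tiles as long as each window, the share in % that held both factors, GATA1 without TAL1, TAL1 without GATA1, or no interval, with window lengths in kb beside the gene names. Stars mark the state of the gene window itself. ELANE alone has its star in the largest class, which made up 86.3% of tiles of its length.

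Over all 6 windows, 411 kb in sum, there were 24.3 GATA1 and 19.5 TAL1 intervals per Mb. Chromosomes 1 to 22 and X had 7.50 and 2.94 per Mb over their full length, including the bands left out of the tiles. Beside this baseline the windows were 3.24 times as dense for GATA1 and 6.63 times for TAL1. The 500 kb on each side of the windows gave 22.3 GATA1 and 9.17 TAL1 intervals per Mb. Beside these flanks the ratios were 1.09 for GATA1 and 2.13 for TAL1, so the GATA1 density of the windows was close to that of their surroundings. Tiles and flanks were not matched to the windows for gene content, and the part of gene content in these ratios was not tested. The TAL1 ratios rest on SPI1 more than on any other window: without it they were 4.76 beside the chromosomes and 1.53 beside the flanks.

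The windows differed from their own flanks in both directions. For GATA1, CEBPA had 28.6 intervals per Mb against 8 in its flanks, and IKZF1 20.1 against 9. CSF1R (37.0 against 31) and MPO (31.2 against 24) differed less, while SPI1 had 18.5 against 24. This last order turns with the limit of the window, since SPI1 widened by 10 kb on both sides had 67.6 GATA1 intervals per Mb. For TAL1, SPI1 had 55.6 per Mb against 8, CSF1R 24.7 against 13 and IKZF1 20.1 against 3. The values of CEBPA and MPO for TAL1 were 0 against 4 in the flanks of each. An interval more or less moves each density of an unwidened window strongly, since no such window held more than 3 of either list.

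**Figure D3:**
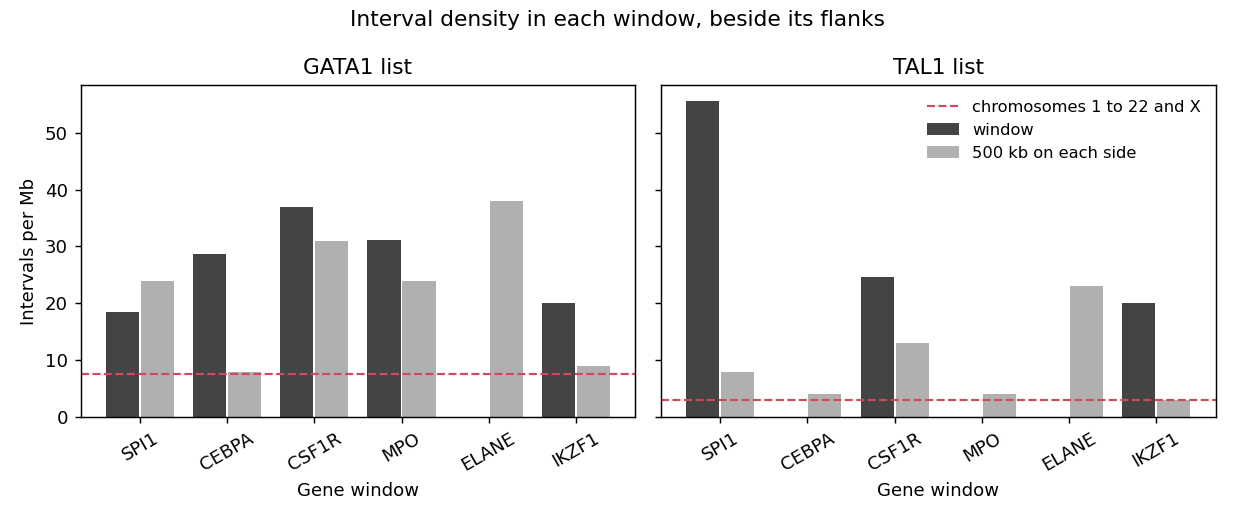
Bars give intervals per Mb in each window (dark) and in the 500 kb on each side of it (light), for the GATA1 list at the left and the TAL1 list at the right, and dashed lines give the density over chromosomes 1 to 22 and X. The SPI1 window reaches 55.6 TAL1 intervals per Mb against 8 in its flanks, while ELANE has none of either list between flanks of 38 and 23 per Mb.

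Of the 10 GATA1 intervals, 5 were shared (50%, exact Clopper-Pearson 95% interval 18.7 to 81.3%), against 30.9% of the whole GATA1 list. Of the 8 TAL1 intervals, 5 were shared (62.5%, 24.5 to 91.5%), against 78.9% of the whole TAL1 list. Neither difference from the whole list was tested. TAL1-only intervals, 2 of them at SPI1, made up 3 of 13 (23.1%, 5.04 to 53.8%). Their share of all distinct intervals in the lists was 7.65%. These bounds take intervals as units and cover counting error only. Intervals of the same window are not independent, so the bounds are no test against the whole list. Of the 5 windows with GATA1, 3 had TAL1. Among tiles of their lengths that held GATA1, those with TAL1 as well ranged from 42.5% at 32 kb to 61.1% at 149 kb.

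Distances between the factors varied among the members. The TAL1-only intervals of SPI1 lay 691 bp and 11.8 kb from a GATA1 interval and that of IKZF1 236 bp, so 2 of 3 were within 1000 bp. Over the whole list 18.2% were within 1000 bp and the median distance was 13.0 kb. The GATA1-only intervals of CSF1R and IKZF1 lay 1.43 kb and 8.74 kb from a TAL1 interval. Those of CEBPA and MPO lay 30.5, 41.8 and 61.9 kb away, around the median of 37.8 kb for the whole list.

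Most shared and GATA1-only members were narrower than the median of their class, and most TAL1-only members were wider. Over all intervals, 3507 of 7029 shared, 7841 of 15740 GATA1-only and 938 of 1885 TAL1-only intervals were below it. With at most 5 members per class, the difference was not tested. The 5 shared members measured 252, 256, 261, 301 and 796 bp, and 4 of them were below the median of 373 bp for all shared intervals. The 5 GATA1-only members measured 126, 165, 175, 188 and 293 bp, and 4 were below the median of 264 bp for their class. The 3 TAL1-only members measured 137, 433 and 508 bp, and 1 was below the median of 274 bp. The wider ones were the shared interval of 796 bp and the TAL1-only interval of 508 bp at IKZF1, the TAL1-only interval of 433 bp at SPI1 and the GATA1-only interval of MPO.

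**Figure D4:**
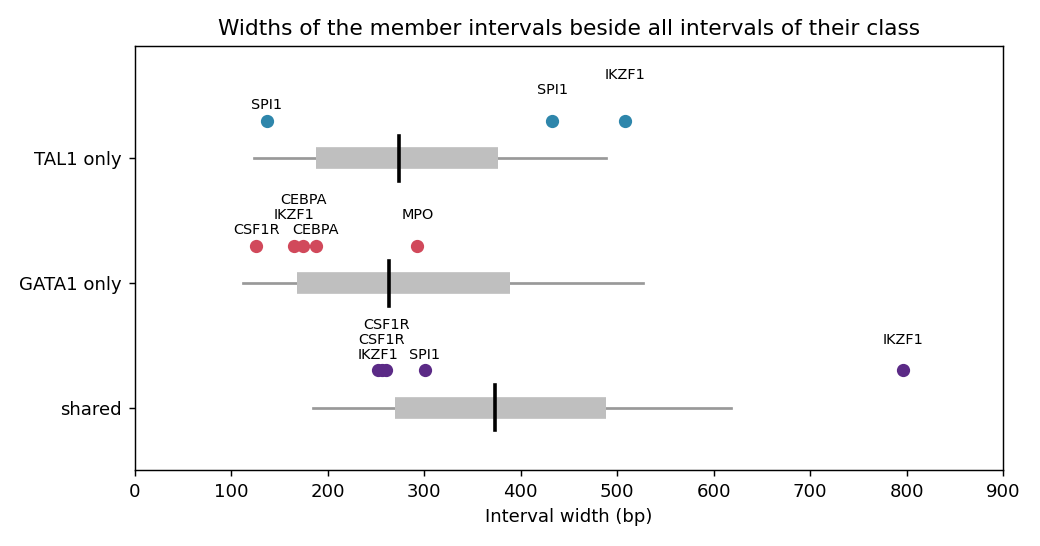
For each class, the thick grey bar spans the quartiles, the thin line the range from the 10th to the 90th percentile and the black tick the median of all intervals of the class, on an axis of width in bp. Dots above each bar are the members, named by gene. Of the shared members, 4 lie between 252 and 301 bp, below the median of 373 bp, and that of IKZF1 lies at 796 bp.

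The erythroid side of the contrast was taken from 3 windows: the beta-globin genes with their locus control region (chromosome 11, 5225001 to 5325000), the alpha-globin genes with their upstream enhancers (chromosome 16, 90001 to 240000), and GATA1 itself (chromosome X, 48640001 to 48660000). These held 28 GATA1 and 15 TAL1 intervals in 270 kb, or 104 and 55.6 per Mb. This was 4.28 times the density of the lineage windows for GATA1 and 2.85 times for TAL1. The erythroid windows were chosen as loci where both factors are best known, so the choice itself favoured a higher density. Both ratios include the GATA1 window of 20 kb, at 250 per Mb for each factor, and were not recomputed without it. No window of the 6 reached the GATA1 density of the beta-globin (120 per Mb), alpha-globin (73.3 per Mb) or GATA1 (250 per Mb) window. These values depend on the window limits: SPI1 widened by 10 kb on both sides had 67.6 GATA1 intervals per Mb. The erythroid windows were placed by hand and were not widened. For TAL1 the order was mixed. SPI1 at 55.6 per Mb stood above beta-globin (50 per Mb) and alpha-globin (33.3 per Mb) and below GATA1 (250 per Mb). Widened by 10, 25 and 50 kb on both sides, SPI1 had 67.6, 48.1 and 39 TAL1 intervals per Mb. From 25 kb on it thus fell below beta-globin. The unwidened densities rest on 3 TAL1 intervals at SPI1 and 5 in each erythroid window.

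Shares and widths of both sets of windows were also set side by side. Of the TAL1 intervals in the erythroid windows, 14 of 15 were shared (93.3%, exact 95% interval 68.1 to 99.8%). The lineage windows had 5 of 8 (62.5%), and the share in the whole TAL1 list was 78.9%. The bounds take intervals as units, and the difference between the sets of windows was not tested. Of the GATA1 intervals, 14 of 28 were shared, or 50%, the same share as in the lineage windows. Shared intervals had a median width of 398.5 bp in the erythroid windows and 261 bp in the lineage windows. The ranges, 216 to 622 bp and 252 to 796 bp, overlap, and the difference was not tested.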

How the data were processed

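The deposited GATA1 and TAL1 lists give a chromosome, start and end per peak, with no height, score or summit. Trimmomatic, Bowtie2, MACS2, deepTools and hg19 are named without versions or roles, per the submitters' processing notes. Thresholds, read depth and any pooling are not given in the sources used here. Overlapping intervals of the lists had identical boundaries, so neither their widths nor their positions are separate measurements for each factor. The genes and windows were chosen with earlier results of these data known, and all 6 genes are named. An interval counted if it overlapped a window by at least 1 bp. Counts came from Python 3.11.15 (pandas 2.3.3, numpy 2.4.6), were tested on simulated lists and equalled those of bedtools 2.31.1 in 6 of 6 windows for each list. Tiles ran from each chromosome's start (lengths from GenomeInfoDb 1.38.1), leaving out centromeric, variable and stalk bands (circlize 0.4.16). Exact intervals came from scipy 1.17.1 and figures from matplotlib 3.10.9. The 4 TAL1 peaks off chromosomes 1 to 22 and X stayed out of shares and densities. The erythroid windows were placed by hand on hg19. Neighbouring genes come from RefSeq order on GRCh38.p14, with no coordinates carried over. Interval sequences, motifs, gene structure and other lineage genes were not analysed here, since no hg19 genome or annotation was used.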

Additional observations from a re-analysis of the deposited data

How the results depend on the processing

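Of 40 alternative values, 23 stayed within 1.5 times the reported one and 17 did not. All 17 had been planned beforehand, while every alternative added after seeing the data stayed within that limit. Requiring the centre of an interval in the window could change no count, since no member lay closer than 1.4 kb to a window end. With a distance of up to 1000 bp in place of identical boundaries, 5 of the 10 GATA1 intervals had a TAL1 interval, as reported. Of the 8 TAL1 intervals, 7 had a GATA1 interval, against 5, a count added after seeing the data. In the whole TAL1 list 78.9% were shared, and 18.2% of TAL1-only intervals also lay within 1000 bp of GATA1. Most TAL1 intervals of the whole list therefore met this rule too. For the whole GATA1 list the matching values were 30.9% and 5.25%. Leaving out each window in turn, chosen after seeing the data, gave density ratios beside the chromosomes of 2.83 to 3.56 for GATA1 and 4.76 to 7.99 for TAL1. Beside the flanks in place of the chromosomes, the ratios were 1.09 and 2.13. Windows widened by 10 kb left 0 without an interval, as did 25 kb and 50 kb. Widened by 10 or 25 kb, ELANE held 1 TAL1 and 0 GATA1 intervals, a state that no unwidened window had. At 25 kb all windows together held 16 GATA1, 13 TAL1 and 9 shared intervals, and at 50 kb 24, 18 and 13. Among intervals of at least 200 bp, 6 GATA1 intervals were left and 2 windows were empty. Among those at least as wide as the median of their list, 2 GATA1, 3 TAL1 and 1 shared interval were left and 4 windows were empty. Wider windows and fewer intervals change these counts by construction. No paired analysis was possible because each list comes from 1 library.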
